A study of Mus musculus with 6 samples.

Results

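The aminoacyl-tRNA synthetase genes of mouse liver were examined 12 hours after an overdose of acetaminophen (APAP). Aminoacyl-tRNA synthetases join each amino acid to its own transfer RNA, the step that feeds amino acids into protein synthesis. The genes were taken from the deposited expression table by name, as the rows named for a synthetase (a letter for the amino acid followed by ars, with or without a final digit) together with Farsa, Farsb, Eprs and Tarsl2. This found 38 of the 34745 genes in the table. The 17 genes that end in 2 other than Tarsl2 encode the enzymes of mitochondria, and the other 21 were read as cytosolic. Tarsl2 was kept with the cytosolic class because it encodes a second threonyl-tRNA synthetase outside mitochondria, although its name also ends in 2. None of the 38 was lost to the filter on low counts.

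Livers were profiled by bulk RNA-Seq in WT mice that were fasted for 12 hours and then given APAP (300 mg/kg, 12 hours) or saline. The series comprises 6 livers, 3 in each group, and the methods name male C57BL/6J mice aged 8–10 weeks. The counts analysed are those of 5 libraries, 2 of APAP livers (replicates 1 and 3) and 3 named WT1, WT2 and WT3, which were assigned to saline by exclusion, since APAP names the remaining columns. APAP replicate 2 was not analysed here. The methods speak of individual biological repeats, and the labels do not name the mouse behind each library. The P values measure the spread between these libraries.

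The total count was between 13378445 and 15976339 per library, so that 3 counts, taken as the floor of detection for counting error only, corresponded to between 0.176 and 0.269 CPM (counts scaled to library size with TMM factors). The libraries went against the stated sex in the saline group. Xist, the RNA that silences one X chromosome in females, was at 0.764 and 1.73 CPM after APAP but between 289.6 and 914 CPM after saline, and all 4 Y-linked genes read (Ddx3y, Eif2s3y, Uty and Kdm5d) were detected in the APAP libraries with at most 0.0668 CPM each in a saline library. Sex-linked expression and treatment therefore cannot be told apart in any comparison below. The levels of some cell type markers differed as well. The summed level of 7 hepatocyte markers was between 70847 and 115235 CPM with APAP and between 121092 and 162831 CPM with saline. Most of that sum was Alb alone, at 51544.5 and 89798 CPM with APAP and 129117, 95101 and 120393 CPM with saline. The fitted log2 fold change was above 0 in 1 of the 7 (Apoa1, 0.57), against 52% of all tested genes. Of the 7 markers, 0 passed the test (3 at an unadjusted P under 0.05 in edgeR). Over all tested genes, 7.23% passed it and 24.9% had an unadjusted P under 0.05. Neutrophil markers summed to between 77.5 and 120.9 CPM with APAP against 4.57 to 8.35 CPM with saline, and all 8 tested of 9 rose. Among these, S100a8, Cxcr2, Retnlg, Mmp8, Camp and Ngp had at most 15 counts in each saline library. They passed the filter on low counts only through the APAP libraries, so only a rise could be called in them. Cholangiocyte markers summed to between 42.2 and 70.6 CPM with APAP against 6.99 to 10.02 CPM with saline, and 1 of 4 (Sox9) passed the test, as a rise. All 4 had a fitted log2 fold change above 0 and an unadjusted P under 0.05 in edgeR. The summed levels of 7 Kupffer cell and macrophage, 6 endothelial and 6 lymphocyte markers (2 tested) overlapped between the groups, with 0 calls, and so did those of 6 stellate cell markers, of which 1 (Col1a1) rose. The part of cell composition and of sex in the values below was not tested. In bulk liver RNA, fewer cells of a type and less RNA per cell cannot be told apart.

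Cells keep separate sets of synthetases for the cytosol, where most proteins are made, and for mitochondria, which translate the few proteins encoded by their own DNA. All of these enzymes are encoded in the nucleus. The enzymes fall into 2 structural classes with unrelated catalytic folds, and in mammals several cytosolic enzymes are held in a multi-tRNA synthetase complex by scaffold proteins. Many cytosolic synthetase genes are known targets of ATF4, the transcription factor induced when amino acids run short or when protein folding fails.

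Few synthetase genes passed the test between APAP and saline livers. Of the 38 genes, 1 (2.63%) passed an adjusted p of 0.05 by the quasi-likelihood method of edgeR, adjusted after Benjamini and Hochberg over all 13734 tested genes, against 7.23% of all tested genes (3.7% higher and 3.53% lower with APAP). It was Nars2, the mitochondrial asparaginyl-tRNA synthetase, which fell. At an unadjusted P under 0.05 in the same test there were 7 genes (18.4%, against 24.9% of all tested genes). With a fold change of at least 1.5 added there were 6 (15.8%, against 23.5%). These 6 were Gars, Vars, Wars, Ears2 and Pars2, which were higher with APAP, and Nars2. The median size of the log2 fold change, regardless of sign, was 0.34 over the 38 genes and 0.44 over all tested genes. The spread between replicates (median biological coefficient of variation) was also smaller, at 22.7% against 28.4%. Its part in the sizes was not tested. Other methods gave similar counts. The likelihood ratio and exact tests of edgeR each called Nars2 alone, where they called 13.4% (7.03% higher, 6.33% lower) and 12.9% (6.91% higher, 6.02% lower) of all tested genes. DESeq2 called Gars higher and Nars2 lower, where it called 15.2% of all tested genes (6.83% higher, 8.41% lower). Scaling to library size only called Gars and Sars higher and 0 lower, where it called 9.75% of all tested genes (7.59% higher, 2.16% lower). A fitted log2 fold change of at least 1 in size was found for 2 of the 38 genes (5.26%, against 20.3% of all tested genes), Nars2 and Pars2.

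The medians of the cytosolic and mitochondrial classes lay on either side of that of all genes, and of 0 except with scaling to library size only, where the mitochondrial median was 0.28 and that of all genes 0.42. The median log2 fold change was 0.31 for the 21 cytosolic genes and −0.10 for the 17 mitochondrial genes, against 0.03 for all tested genes. The value was above 0 for 14 cytosolic genes (66.7%) and for 6 mitochondrial genes (35.3%), against 52% of all tested genes. Non-overlap of the APAP and saline libraries was found in 20 of the 38 genes (52.6%, against 44.1% of all tested genes). APAP was the higher group in 9 cytosolic genes (42.9%) and 3 mitochondrial genes (17.6%), against 24% of all tested genes. It was the lower group in 2 cytosolic genes (9.52%) and 6 mitochondrial genes (35.3%), against 20.1% of all tested genes. No test was made of the difference between the classes. Leaving out APAP replicate 1 or 3 put the cytosolic median at 0.21 or 0.16, and the mitochondrial median was −0.20 without APAP replicate 3, so that each APAP library bears on the size of these medians.

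**Figure D1:**
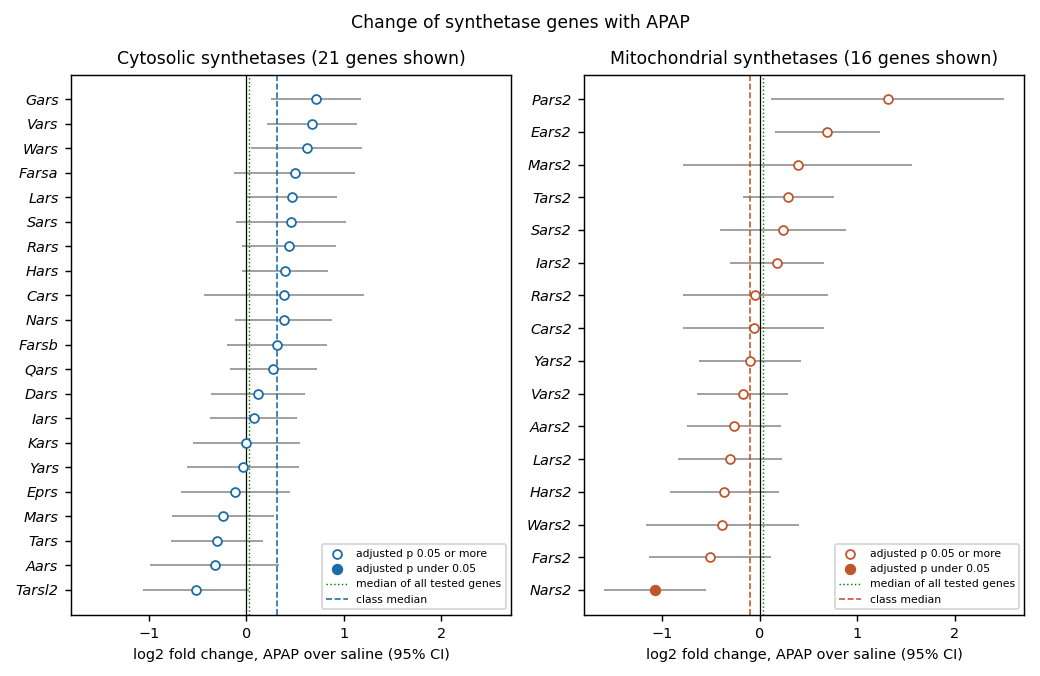
Fitted log2 fold change of 37 of the 38 synthetase genes, APAP over saline, with its 95% confidence interval from edgeR's quasi-likelihood fit (2 APAP and 3 saline libraries), for the cytosolic (left) and mitochondrial (right) genes. Filled points passed an adjusted p of 0.05, which holds for Nars2 at −1.07, and the dashed class medians lie at 0.31 and −0.10 beside the dotted median of all tested genes at 0.03.

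Summed over the genes of a class, the difference was small as well. The 21 cytosolic genes summed to 1119 and 1289 CPM with APAP and to 1159, 1091 and 1160 CPM in WT1, WT2 and WT3. The 17 mitochondrial genes summed to 253.7 and 260.7 CPM with APAP and to 255.2, 280.8 and 271.9 CPM with saline. The groups overlapped in both sums. The ratio of cytosolic to mitochondrial counts within a library, which does not depend on scaling between libraries, was 4.41 and 4.94 with APAP and 4.54, 3.89 and 4.26 with saline, and overlapped too. The cytosolic genes took between 0.140% and 0.142% of all counts in the APAP libraries and between 0.0907% and 0.109% in the saline libraries, before any scaling for composition. The share of the mitochondrial genes was higher with APAP as well, at 0.0323% and 0.0284% against 0.0200%, 0.0275% and 0.0255%.

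Levels between genes were compared as CPM per kb of exon, using the joined exon length of GENCODE M21. In saline livers, the median level was 7.62 CPM per kb over the cytosolic genes and 2.58 CPM per kb over the mitochondrial genes. Of the 19 genes with the highest level, 17 were cytosolic, also when the length of the longest transcript was used. The highest was Nars, cytosolic asparaginyl-tRNA synthetase, at 24.2 ± 1.17 CPM per kb (SD, n = 3 libraries), followed by Aars, the alanyl enzyme, at 23.6 ± 3.70, and Tars, the threonyl enzyme, at 21.9 ± 0.807. These 3 neighbours differed by less than the spread of Aars. Hars (histidyl), Mars (methionyl) and Dars (aspartyl) followed at 14.99 ± 1.25, 14.9 ± 2.07 and 14.4 ± 1.82 CPM per kb and were likewise within their spread. The lowest levels were those of the mitochondrial genes Wars2 (tryptophanyl) at 1.02 ± 0.186, Mars2 (methionyl) at 0.540 ± 0.285 and Pars2 (prolyl) at 0.456 ± 0.172 CPM per kb, of which Mars2 and Pars2 were within their spread. The mitochondrial gene with the highest level was Iars2 (isoleucyl) at 7.27 ± 0.865 CPM per kb, close to its cytosolic counterpart Iars at 7.62 ± 0.518. The transcript of Iars2 shares 36.6% of its 50-base words with other genes, chiefly Rab3gap2 on the opposite strand, so its count is uncertain. The same holds for Aars, which shares 22.4% of its words, chiefly with Exosc6, and for Cars2, which shares 17.8%, chiefly with Naxd. By the length of the longest transcript, Nars, Aars and Tars stayed the highest 3, while Dars, Kars and Eprs came next, ahead of Hars and Mars, and Iars2 (11.8 ± 1.405) lay above Iars (9.07 ± 0.616).

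**Figure D2:**
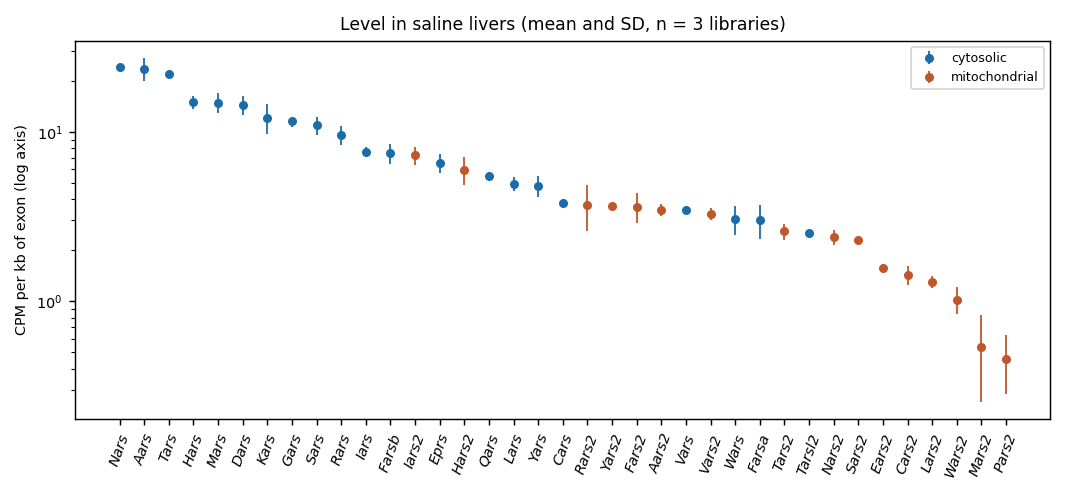
Level of 37 of the 38 synthetase genes in saline livers, as the mean CPM per kb of exon on a log axis with the SD over the 3 libraries, ordered from high to low and colored by class. Nars, Aars and Tars lie above 21 CPM per kb, and Mars2 and Pars2 lie lowest, at 0.540 and 0.456 CPM per kb.

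Among the cytosolic genes, the highest fitted change was that of Gars (ENSMUSG00000029777), glycyl-tRNA synthetase, which also makes the mitochondrial form of the enzyme from the same gene. Gars lies on chromosome 6 of GRCm38 from 55038007 to 55079500 on the plus strand. It was at 64.2 and 53.7 CPM in APAP livers against 38.7, 34.2 and 34.9 CPM in saline livers. Both APAP libraries lay above all 3 saline libraries. The log2 fold change was 0.71 (standard error 0.19, 95% confidence interval 0.26 to 1.17), with an adjusted p of 0.0746 in edgeR. DESeq2 gave an adjusted p of 0.0327 for Gars, in a fit that called 15.2% of all genes, and scaling to library size gave 0.0303. Over the 13 alternatives the adjusted p of Gars ranged from 0.0303 to 0.373.

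Vars, the valyl enzyme, was at 33.8 and 27.8 CPM in APAP livers against 18.2, 20.3 and 19.6 CPM in saline livers, without overlap. The fitted change of Vars was 0.67 on the log2 scale (standard error 0.20, adjusted p = 0.0896 in edgeR). Wars, the tryptophanyl enzyme, which interferon gamma is known to induce, was at 16.3 and 15.9 CPM against 12.5, 10.6 and 8.48 CPM, again without overlap (log2 fold change 0.62, adjusted p = 0.171 in edgeR). Lars, the leucyl enzyme and a known sensor of leucine for mTORC1, was at 38.9 and 34.4 CPM against 24.6, 25.6 and 29.4 CPM (log2 fold change 0.47, adjusted p = 0.197 in edgeR). It is the only other cytosolic gene with an unadjusted P under 0.05.
The remaining cytosolic genes with both APAP libraries above the saline libraries were Farsa, Rars, Hars, Nars and Qars, with log2 fold changes between 0.28 and 0.49. Farsa and Farsb encode the α and β subunits of the phenylalanyl enzyme, which works as a tetramer of both. Farsa was at 16.98 and 21.6 CPM in APAP livers against 10.3, 16.3 and 14.4 CPM in saline livers, while Farsb was at 26.6 and 22.1 CPM against 22.2, 19.9 and 16.8 CPM, with overlap. The fitted changes of the subunits were 0.49 and 0.31 on the log2 scale.

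A few cytosolic genes had lower fitted values with APAP, and none of these passed the test. Tarsl2 was at 10.05 and 13.8 CPM in APAP livers against 17.6, 16.9 and 16.8 CPM in saline livers, without overlap (log2 fold change −0.52, adjusted p = 0.217 in edgeR). Tars, the main threonyl gene, was at 107.4 and 101.6 CPM against 126.3, 134.5 and 126.3 CPM, also without overlap (−0.30, adjusted p = 0.401 in edgeR). Both cytosolic threonyl genes were thus lower in the 2 APAP libraries than in all saline libraries. Aars was at 140.2 and 209.7 CPM against 242.6, 179.96 and 235.6 CPM, with overlap. With scaling to library size only, the fitted changes of Tars and Aars were above 0, at 0.09 and 0.06, while that of Tarsl2 stayed below 0.

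The libraries of APAP livers differed most from each other in Cars, the cysteinyl enzyme. Cars was at 19.7 CPM in APAP replicate 1 and at 45.9 CPM in replicate 3, below and above the saline libraries, which were at 23.7, 26.4 and 25.1 CPM. Its log2 fold change of 0.39 (standard error 0.35) became −0.36 without APAP replicate 3. Sars, the seryl enzyme, was also higher in replicate 3 (91.5 CPM) than in replicate 1 (63.3 CPM), against 64.3, 52.3 and 52.6 CPM with saline.

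**Figure D3:**
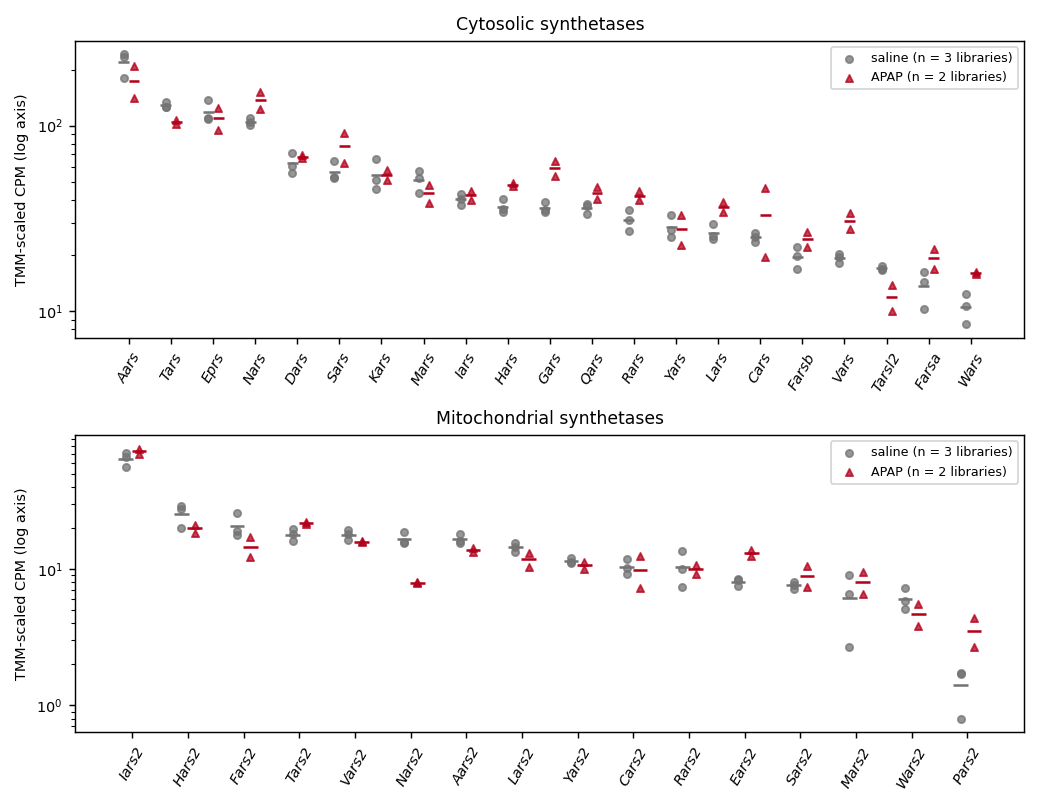
TMM-scaled CPM of 37 of the 38 synthetase genes in every library, on a log axis, for the cytosolic (top) and mitochondrial (bottom) genes ordered by the saline mean, with saline libraries as circles (n = 3), APAP libraries as triangles (n = 2) and group means as bars. Gars and Vars show APAP libraries above saline libraries, Nars2 shows them below, and the APAP libraries of Cars lie on either side of the saline libraries.

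None of the enzymes or scaffolds of the multi-tRNA synthetase complex passed the test in edgeR or DESeq2, except Aimp2 with scaling to library size only (adjusted p = 0.0402 in edgeR). The 8 complex enzymes (Eprs, Iars, Lars, Mars, Qars, Rars, Kars and Dars) had log2 fold changes from −0.24 to 0.47 around a median of 0.10, while the 13 other cytosolic genes ranged from −0.52 to 0.71 around a median of 0.39. The ranges overlapped, and the difference was not tested. Eprs, which carries the glutamyl and the prolyl activity in one protein, was at 95.4 and 123.9 CPM in APAP livers against 110.2, 109.1 and 136.8 CPM in saline livers. Kars, which makes both the cytosolic and the mitochondrial lysyl enzyme, was at 57.3 and 50.99 CPM against 66.5, 50.7 and 45.6 CPM. Both overlapped between the groups, and the 95% confidence interval of the log2 fold change was −0.67 to 0.44 for Eprs and −0.55 to 0.55 for Kars. Mars lies tail to tail with Ddit3, the stress gene that encodes CHOP, with 68 bases in common on opposite strands. The strand setting of the counting is not given in the sources used here, so reads of those bases cannot be assigned.
Of the 3 scaffold genes, Aimp2 was at 12.2 and 9.95 CPM in APAP livers against 6.72, 5.31 and 3.94 CPM in saline livers (log2 fold change 1.06, adjusted p = 0.091 in edgeR). Eef1e1, also called AIMP3, was at 16.5 and 14.7 CPM against 9.23, 8.77 and 12.2 CPM (0.63, adjusted p = 0.168 in edgeR). Both lay above the saline libraries without overlap. Aimp1 was at 20.3 and 16.9 CPM against 20.3, 19.6 and 17.3 CPM, with overlap. None of the 3 passed the test, and 2 had an unadjusted P under 0.05 in edgeR, against 24.9% of all tested genes.
By catalytic fold, the median log2 fold change was 0.39 over the 9 cytosolic class I genes and 0.31 over the 11 cytosolic class II genes, with Eprs, which has domains of both classes, left out.

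Nars2 (ENSMUSG00000018995), the synthetase gene that passed the test, lies on chromosome 7 of GRCm38 from 96951505 to 97064758 on the plus strand. It was at 7.99 and 7.85 CPM in APAP livers (136 and 127 counts) against 18.6, 15.6 and 15.8 CPM in saline livers (207, 235 and 236 counts). The APAP libraries lay below all saline libraries, at a mean of 7.92 ± 0.0996 CPM (SD, n = 2) against 16.6 ± 1.66 CPM (SD, n = 3). The log2 fold change was −1.07 (standard error 0.22, 95% confidence interval −1.59 to −0.55), with an adjusted p of 0.0374 in edgeR. DESeq2 gave an adjusted p of 0.00142, and the likelihood ratio and exact tests of edgeR gave 0.00795 and 0.00876. The call did not hold when any of the 5 libraries was left out, with adjusted p values from 0.0573 (without WT3) to 0.196 (without APAP replicate 1) and log2 fold changes between −1.12 and −0.97, or with scaling to library size only (−0.67, adjusted p = 0.124).

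Its cytosolic counterpart Nars was at 122.9 and 151.9 CPM in APAP livers against 104.96, 100.4 and 110.6 CPM in saline livers. The APAP libraries of Nars lay above the saline libraries (log2 fold change 0.38, adjusted p = 0.316 in edgeR). Within a library, the log2 ratio of Nars to Nars2 counts was 3.94 and 4.27 with APAP and 2.50, 2.68 and 2.81 with saline, a difference of 1.44 that does not depend on scaling between libraries. It rests on the same Nars2 counts as the call, so it is not separate support for that call. The gene that makes asparagine itself, Asns (asparagine synthetase), was at 8.40 and 16.2 CPM in APAP livers (143 and 262 counts) against 0.269, 0.465 and 0.534 CPM in saline livers (3, 7 and 8 counts). Asns rose by 4.81 on the log2 scale (standard error 0.46, adjusted p = 0.00404 in edgeR), and remained past the threshold in each of the 12 alternatives in which it was tested. With so few saline counts it passed the filter only through the APAP libraries, so only a rise could be called.

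The mitochondrial genes with the APAP libraries below the saline libraries also included Fars2 (phenylalanyl), Lars2 (leucyl), Aars2 (alanyl) and Vars2 (valyl), with log2 fold changes from −0.51 to −0.18. None of them passed the test. Fars2 was at 12.2 and 17.1 CPM in APAP livers against 25.7, 17.8 and 18.97 CPM in saline livers.
Hars2, the histidyl gene, starts head to head with Hars on chromosome 18 and shares 198 bases with it on the opposite strand. Hars2 was at 21.2 and 18.5 CPM in APAP livers against 19.99, 27.8 and 28.8 CPM in saline livers, with overlap, while Hars was at 47.5 and 48.9 CPM against 40.2, 34.4 and 35.5 CPM, without overlap. The fitted changes of these neighbours were −0.36 for Hars2 and 0.39 for Hars. Of the mitochondrial genes with values close to 0, Yars2, Cars2 and Rars2 lay between −0.10 and −0.05 on the log2 scale, and Wars2, with a value of −0.39, overlapped between the groups as they did.

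Higher values with APAP were found in 6 mitochondrial genes. Pars2, the prolyl enzyme, was at 4.35 and 2.66 CPM in APAP livers (74 and 43 counts) against 1.70, 0.797 and 1.74 CPM in saline livers (19, 12 and 26 counts). Its log2 fold change of 1.31 was the highest of the 38 genes, with a standard error of 0.51 and an adjusted p of 0.168 in edgeR, and it was 0.92 without APAP replicate 1. Ears2, the glutamyl enzyme, was at 13.7 and 12.4 CPM against 8.43, 8.30 and 7.48 CPM, without overlap (log2 fold change 0.69, standard error 0.23, adjusted p = 0.118 in edgeR). Tars2, the threonyl enzyme, was at 22.3 and 21.6 CPM against 18.02, 19.7 and 15.97 CPM, without overlap. Iars2, Sars2 (seryl) and Mars2 overlapped between the groups, and Mars2 was the most uneven among the saline libraries, at 2.69, 6.51 and 9.09 CPM.

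Mitochondria have no glutaminyl-tRNA synthetase of their own. EARS2 first loads the tRNA of glutamine with glutamate, and the amidotransferase GatCAB, made of the products of Qrsl1, Gatb and Gatc, then converts it to glutamine. Along this route, Ears2 and Qrsl1 were higher and Gatb was lower in the APAP libraries. Gatb was at 10.05 and 12.4 CPM in APAP livers against 21.9, 26.0 and 19.8 CPM in saline livers, and fell by 1.01 on the log2 scale (adjusted p = 0.0476 in edgeR). The call of Gatb held in 6 of 13 alternatives. It was lost with upper-quartile factors, with scaling to library size only (−0.63, adjusted p = 0.165 in edgeR) and without any of the 5 libraries (adjusted p 0.057 to 0.261, log2 fold change −1.18 to −0.87). Qrsl1 was at 8.05 and 5.19 CPM against 3.05, 3.45 and 3.34 CPM, without overlap, and did not pass the test (log2 fold change 1.01, adjusted p = 0.116 in edgeR). Gatc was at 18.9 and 15.2 CPM against 20.7, 17.1 and 16.4 CPM, with overlap. Cytosolic Qars, which serves glutamine directly, was at 46.5 and 40.4 CPM against 36.7, 33.3 and 37.7 CPM (0.28, adjusted p = 0.423 in edgeR).

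Cytosolic and mitochondrial genes for the same amino acid were set against each other as 19 pairs, counting Eprs, Fars2 and Tars2 in 2 pairs each. The ratio of raw counts holds the lengths of both genes, so only its difference between libraries is read. The mean log2 ratio was higher with APAP in 12 pairs and lower in 7, with a median difference of 0.37. The largest increase was that of Nars to Nars2. For Wars to Wars2, the log2 ratio was 2.10 and 1.54 with APAP and 1.29, 0.86 and 0.22 with saline. For Vars to Vars2, it was 1.11 and 0.803 against −0.083, 0.165 and 0.264. In both, the APAP libraries lay above the saline libraries.
The opposite was found for proline, glutamate and threonine. The log2 ratio of Eprs to Pars2 was 4.45 and 5.54 with APAP and 6.02, 7.10 and 6.30 with saline, and that of Eprs to Ears2 was 2.80 and 3.32 against 3.71, 3.72 and 4.19. For Tars to Tars2, it was 2.27 and 2.24 against 2.81, 2.77 and 2.98. In these 3 pairs the APAP libraries lay below the saline libraries. With 2 against 3 libraries there are 10 ways to split them, so no exact permutation test could pass 0.05 and none was made.

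**Figure D4:**
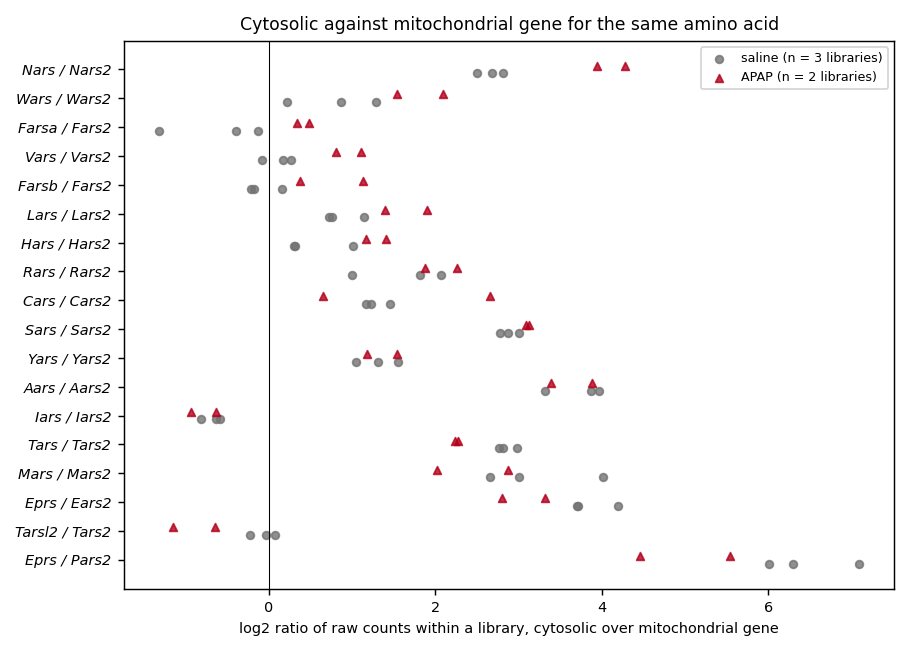
Log2 ratio of raw counts within each library for 18 of the 19 pairs of a cytosolic and a mitochondrial synthetase gene that serve the same amino acid, with saline libraries as circles (n = 3) and APAP libraries as triangles (n = 2), ordered by the difference of the group means. The difference is 1.44 for Nars over Nars2 at the top and −1.47 for Eprs over Pars2 at the bottom.

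Promoters were read because cytosolic synthetase genes are known ATF4 targets. RefSeq promoter sequences (GRCm38.p6, 250 bases before to 50 bases after the start) were found for 28 of the 38 genes, 14 in each class. They were searched on both strands for TGATGNAA (TTNCATCA on the other strand), the core letters of the C/EBP-ATF response element that ATF4 binds. The motif was found in 5 of the 14 cytosolic promoters (Aars, Gars, Iars, Tars and Yars) and in 0 of the 14 mitochondrial promoters, against 4.51% of 27025 genes with a promoter entry. The narrower TTGCATCA, which is contained in TTNCATCA, is held by the matches of Iars, Tars and Yars shown here, against 1.03% of genes. 1 match in each of the 5 promoters is shown on the strand of the gene, with the 8 matching bases in capitals, because the motif is a sequence feature these cytosolic genes share. In Gars the motif starts 30 bases before the annotated start, and in Tars 15 bases before it, and in Iars, Yars and Aars it starts at base 8, base 4 and base 10 of the transcript.
Gars, chr6:55037961-55037988, plus strand: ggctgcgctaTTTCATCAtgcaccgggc
Tars, chr15:11399656-11399683, minus strand: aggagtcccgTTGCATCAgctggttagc
Aars, chr8:111033841-111033868, plus strand: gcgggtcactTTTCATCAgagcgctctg
Iars, chr13:49682127-49682154, plus strand: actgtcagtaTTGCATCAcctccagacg
Yars, chr4:129189896-129189923, plus strand: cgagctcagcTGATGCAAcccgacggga

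The log2 fold changes of the genes that hold the motif were 0.71 for Gars, 0.08 for Iars, −0.03 for Yars, −0.30 for Tars and −0.33 for Aars, a median of −0.03, against a median of 0.12 for the 9 cytosolic genes whose promoter window lacks these letters. The promoters of the other 7 cytosolic genes, Cars, Hars, Lars, Nars, Rars, Vars and Wars, were not read. Their log2 fold changes were all above the class median of 0.31, at 0.38 to 0.67. The comparison by motif thus leaves out 7 genes from the upper part of the class. The genes read still include Gars, the highest of the class, and Farsa (0.49) and Sars (0.46). A match is a description of the sequence and not a measured binding site. The bases before the start of Gars (chr6:55037751-55038000, plus strand, motif in capitals) are shown with those of Nars2 (chr7:96951277-96951504, plus strand, no match), the genes with the highest cytosolic value and with the passed test.
Gars: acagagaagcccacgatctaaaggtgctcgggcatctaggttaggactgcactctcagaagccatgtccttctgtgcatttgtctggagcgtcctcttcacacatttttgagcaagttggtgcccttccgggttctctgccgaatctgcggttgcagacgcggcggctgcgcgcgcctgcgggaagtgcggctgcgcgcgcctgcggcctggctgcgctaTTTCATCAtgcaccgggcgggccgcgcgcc
Nars2: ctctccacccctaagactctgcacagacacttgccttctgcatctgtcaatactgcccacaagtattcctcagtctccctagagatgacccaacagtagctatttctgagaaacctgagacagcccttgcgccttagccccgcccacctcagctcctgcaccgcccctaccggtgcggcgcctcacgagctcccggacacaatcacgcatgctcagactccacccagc

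ATF4 itself and its known targets outside the synthetase family were read from a list of 25 genes, of which 23 were tested. Of these, 5 rose and 2 fell at an adjusted p under 0.05 in edgeR's quasi-likelihood test. That test called 3.7% of all tested genes higher and 3.53% lower. Atf4 was at 171.0 and 172.8 CPM in APAP livers against 108.5, 88.6 and 113.2 CPM in saline livers, without overlap (log2 fold change 0.73, adjusted p = 0.0904 in edgeR). The genes that rose were Asns, Atf3, Psat1, Slc7a11 and Gdf15. Asns, Psat1 and Slc7a11 had at most 10 counts in each saline library. They passed the filter on low counts through the APAP libraries, so only a rise could be called in them. With at least 10 counts required in every library, 18 genes of the list were tested. Of those, 3 rose and 2 fell, where 8.67% of all tested genes were called. Psat1, an enzyme of serine synthesis, was at 48.6 and 41.0 CPM against 0, 0.598 and 0.668 CPM, and Slc7a11, the cystine importer, was at 42.0 and 17.6 CPM against 0.0896 CPM in WT1 and 0 counts in WT2 and WT3. Cth, which makes cysteine by transsulfuration, fell by 4.12 on the log2 scale (adjusted p = 0.00183 in edgeR), and Vldlr fell by 3.15 (adjusted p = 0.0238 in edgeR). The call of Vldlr was lost without APAP replicate 1, APAP replicate 3 or WT2, and that of Gdf15 without APAP replicate 3 or WT2. Over all 23 tested genes of the list the median log2 fold change was 0.89, with 19 above 0. Over all tested genes the median was 0.03, with 52% above 0. The values of the list include Asns, Psat1 and Slc7a11. They also include Aldh1l2, whose log2 fold change of 0.89 is the median. With 5, 13 and 4 saline counts, Aldh1l2 would not have passed the filter without the APAP libraries.

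The other steps of tRNA supply gave few calls. Of 23 tested genes of tRNA processing and export, 0 passed the test in edgeR, against 7.23% of all tested genes. At an unadjusted P under 0.05 in that test there were 6, against 24.9% of all tested genes. DESeq2 and the likelihood ratio and exact tests of edgeR each called 2, where they called 15.2%, 13.4% and 12.9% of all tested genes. The median log2 fold change of the 23 genes was 0.38, with 19 above 0, against 0.03 and 52% over all tested genes. Trnt1, which adds the CCA end to all tRNAs, was at 27.6 and 21.9 CPM in APAP livers against 8.60, 11.3 and 16.5 CPM in saline livers (log2 fold change 1.03, adjusted p = 0.0924 in edgeR). Xpot, the exporter of tRNA from the nucleus, was at 83.7 and 101.0 CPM against 72.5, 90.7 and 94.9 CPM, with overlap.
Of 6 genes of selenocysteine synthesis and insertion, Sephs2, which makes the selenium donor, fell from 846, 806 and 791 CPM with saline to 294 and 339 CPM with APAP (log2 fold change −1.36, adjusted p = 0.0278 in edgeR), and the call held without WT3 but not without any of the other 4 libraries. None of 6 cytosolic and 5 mitochondrial elongation factors or of 4 editing and related proteins passed the test in edgeR. At an unadjusted P under 0.05 in that test there were 0, 2 and 0, against 24.9% of all tested genes. The 2 were Tufm and Gfm2, mitochondrial elongation factors, which were lower with APAP.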

How the data were processed

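Liver RNA of mice given APAP or saline was sequenced by the authors on an Illumina platform. They obtained read counts with HISAT2 and deposited them as whole numbers, not normalized, for each gene in each library. The submitters' notes name GRCm38 (mm10). Versions, annotation and strand setting are not given in the sources used here. The 5 deposited columns of FPKM were not used, since counts were at hand. Coordinates are those of the deposited table, where 34267 of 34745 identifiers were found in GENCODE M21.

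The analysis used edgeR 4.0.16 under R 4.3.3. The filterByExpr function (at least 10 counts, total of at least 15) chose the genes, which were normalized by TMM and compared by the quasi-likelihood test with Benjamini-Hochberg adjustment over 13734 genes. Standard errors are the log2 fold change divided by the root of the F statistic. The design, written for 3 libraries per group, was kept with 2 APAP libraries. Alternatives were DESeq2 1.42.0, other edgeR tests, scalings, filters and thresholds, and each library left out. The fits were tested on simulated data. The counts and medians cover all 38 synthetase genes, of which 1 gene, with 1 promoter match of another, is not reported here. List genes were named when called or by their role. Some were chosen after their values were seen. The members and lists were chosen with earlier results of these data known. Counts of library pairs within a group differed beyond sampling noise, with a chi-square of 34.8 to 73.6 for each degree of freedom. Promoters came from RefSeq, and plots were made with matplotlib 3.10.9 in Python 3.11.15.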

Additional observations from a re-analysis of the deposited data

How the results depend on the processing

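The cytosolic median log2 fold change lay above that of all tested genes by 0.13 to 0.32, and the mitochondrial median lay 0.11 to 0.22 below it (−0.22 to −0.11), under all 13 alternative fits. With scaling to library size only, the median of all genes moved from 0.03 to 0.42, the cytosolic median to 0.72 and the mitochondrial to 0.28, with 20 cytosolic and 13 mitochondrial genes above 0. The share of all genes above 0 moved from 52.0% to 74.0%. That scaling called 2 cytosolic genes higher (Sars and Gars) and 0 mitochondrial genes lower, DESeq2 called 1 cytosolic gene higher, and the thresholds of fold change 1.5 and unadjusted P called 3 cytosolic and 2 mitochondrial genes higher. With each library left out in turn, the cytosolic median was 0.16 to 0.34, the mitochondrial median was −0.20 to −0.11, and 0 mitochondrial genes were called lower, in fits that called 1.23% to 6.84% of all tested genes. The call of Nars2 held in 7 of the 8 other alternatives. With library size only, 13 genes changed sign, none of them called. These were Aars (0.058), Aars2 (0.12), Cars2 (0.35), Eprs (0.26), Hars2 (0.018), Kars (0.42), Lars2 (0.078), Mars (0.13), Rars2 (0.33), Tars (0.090), Vars2 (0.22), Yars (0.33) and Yars2 (0.28). Kars was also above 0 with upper-quartile factors (0.037) and with at least 10 counts in every library (0.018), and Yars with upper-quartile factors (0.0014). With a library left out, the values crossed 0 in Cars (−0.36 to 0.88), Cars2 (−0.50 to 0.26), Eprs (−0.33 to 0.066), Iars (−0.0047 to 0.14), Kars (−0.11 to 0.18), Rars2 (−0.22 to 0.20), Sars2 (−0.046 to 0.47) and Yars (−0.33 to 0.21). The cause of these changes was not tested. No paired analysis was possible because the numbers of the WT columns do not match them to the numbered saline samples. Counts were lowest in Pars2, with 12 to 26 in each saline library.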
